A study of Mus musculus with 8 samples.

Results

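The comparison described here set hepatocyte chromatin at 72 h after partial hepatectomy (PHx) against hepatocyte chromatin of undamaged liver (0 h), using 4 of the 8 bulk ATAC-Seq libraries of the series. The members were the 2 libraries labelled 0 h and the 2 labelled 72 h. All came from livers of mice that the labels describe as C57BL/6, 10-12 weeks old and fed a normal diet. The study's methods name male mice of the substrain C57BL/6J and a somewhat younger age at surgery. In every group hepatocytes were freed by collagenase perfusion. The 0 h livers were undamaged and the 72 h livers were taken after PHx surgery. Per the study's methods, primary hepatocytes were isolated from several mice at every time point, and the bulk libraries of undamaged liver came from separate hepatocyte preparations, called biological replicates. How the 72 h bulk libraries map onto mice is not given in the sources used here, so their spread may be technical in part. The libraries at 48 and 96 h were used only to show the same regions at other times. A peak in bulk material averages over all nuclei, and fewer open nuclei cannot be told apart from less opening per nucleus.

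PHx removes part of the liver, after which the hepatocytes that remain leave quiescence, divide and restore the lost mass while still carrying out the metabolic work of the organ. ATAC-Seq marks DNA that is free of nucleosomes, where the Tn5 transposase can insert sequencing adapters. In hepatocytes such DNA is found at promoters and at enhancers bound by HNF4A, FOXA and C/EBP proteins, which maintain adult liver genes, and at sites of CTCF, which organises chromatin loops. AP-1 and TEAD proteins are the usual effectors of growth and stress signals on enhancers.

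Intervals were compared by their rank. Each deposited peak list was cut to its 100000 strongest distinct intervals, and each interval received a percentile of its −log10 p within its own list (near 100 for the strongest, 0 for a region with no interval among those kept). Intervals of the 4 lists that overlapped by at least 1 bp were merged into 141199 regions, of which 69459 had a mean percentile of at least 25 and were tested. A region was called higher or lower at 72 h if both 72 h libraries lay on the same side of both 0 h libraries with a margin of at least 10 percentile points between the nearest libraries. Below, a margin is always this distance between the nearest libraries, and a percentile is a level. In 2 crossed groupings each side held 1 library of each time, which shows how many regions separate libraries when time does not.

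Sequences from the regions that carry the results are shown first, on the plus strand of GRCm38.p6, the assembly of the mm10 build used for the lists. The first 6 windows are the 200 bp around the summit of the 3 regions with the widest margin in each direction, named by the nearest protein-coding gene. Capitals mark matches to the motifs AP-1 (TGANTCA), STAT (TTCNNNGAA) and C/EBP (TTNNGCAA), and windows without capitals held none of the 20 motifs searched on both strands.
Barhl2 (chr5:106453432-106453631): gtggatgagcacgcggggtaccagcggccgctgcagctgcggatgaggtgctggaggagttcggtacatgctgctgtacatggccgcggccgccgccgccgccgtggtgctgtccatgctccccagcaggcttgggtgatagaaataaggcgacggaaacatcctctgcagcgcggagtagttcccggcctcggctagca
Arhgap5 (chr12:52434099-52434298): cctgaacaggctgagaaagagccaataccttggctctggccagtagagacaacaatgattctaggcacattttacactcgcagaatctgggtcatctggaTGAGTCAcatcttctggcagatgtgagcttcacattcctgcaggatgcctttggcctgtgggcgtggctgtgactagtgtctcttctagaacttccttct
Mall (chr2:127749443-127749642): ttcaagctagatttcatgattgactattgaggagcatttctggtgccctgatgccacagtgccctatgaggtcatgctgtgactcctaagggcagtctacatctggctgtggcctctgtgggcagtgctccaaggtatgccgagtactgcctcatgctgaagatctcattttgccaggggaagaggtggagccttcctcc
Zfp141 (chr7:42496541-42496740): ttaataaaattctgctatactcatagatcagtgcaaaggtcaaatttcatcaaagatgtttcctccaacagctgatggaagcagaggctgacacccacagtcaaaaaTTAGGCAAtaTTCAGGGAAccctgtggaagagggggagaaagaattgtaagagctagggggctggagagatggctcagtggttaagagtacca
Kbtbd11 (chr8:14992215-14992414): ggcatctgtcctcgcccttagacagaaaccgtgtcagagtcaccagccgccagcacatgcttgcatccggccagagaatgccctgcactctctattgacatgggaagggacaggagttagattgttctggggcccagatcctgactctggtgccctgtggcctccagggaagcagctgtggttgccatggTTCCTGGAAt
Meis3 (chr7:16153669-16153868): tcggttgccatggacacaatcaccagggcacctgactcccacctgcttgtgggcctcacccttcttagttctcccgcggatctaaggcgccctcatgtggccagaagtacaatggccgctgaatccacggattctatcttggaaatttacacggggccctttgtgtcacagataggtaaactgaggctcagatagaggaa
The regions of Barhl2, Arhgap5 and Mall were higher at 72 h and those of Zfp141, Kbtbd11 and Meis3 lower.

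A second set of windows shows motif matches in regions near genes that had several regions moving one way. Capitals mark HNF4 (CAAAGTNCA), E-box (CACGTG) or FOXA (TGTTTAC) matches in regions that were lower at 72 h.
Hpgd (chr8:56223186-56223246): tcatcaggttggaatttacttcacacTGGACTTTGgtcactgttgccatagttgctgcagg
Alb (chr5:90447719-90447779): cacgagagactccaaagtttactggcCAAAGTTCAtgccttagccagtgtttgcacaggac
Cps1 (chr1:67116702-67116762): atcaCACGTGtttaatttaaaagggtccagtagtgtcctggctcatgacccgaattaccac
Car1 (chr3:14727592-14727652): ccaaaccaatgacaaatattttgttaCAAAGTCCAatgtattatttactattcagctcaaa
Cd28 (chr1:60827233-60827282): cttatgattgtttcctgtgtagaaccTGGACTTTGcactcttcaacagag
Fzd7 (chr1:59483840-59483900): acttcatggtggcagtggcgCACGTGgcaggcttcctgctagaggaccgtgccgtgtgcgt
Xiap (chrX:42033201-42033261): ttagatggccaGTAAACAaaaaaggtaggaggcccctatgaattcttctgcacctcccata
Col15a1 (chr4:47241099-47241159): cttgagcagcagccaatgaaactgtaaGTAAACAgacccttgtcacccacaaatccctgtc
In the regions that were higher at 72 h, capitals mark a CTCF motif match or an AP-1 match.
Trio (chr15:27905521-27905581): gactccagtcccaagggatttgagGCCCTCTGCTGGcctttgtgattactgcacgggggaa
Arhgap27 (chr11:103327119-103327179): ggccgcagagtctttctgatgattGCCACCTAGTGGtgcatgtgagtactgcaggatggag
Sept9 (chr11:117276191-117276251): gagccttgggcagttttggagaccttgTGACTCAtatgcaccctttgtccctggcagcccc
Gpatch2 (chr1:187276355-187276415): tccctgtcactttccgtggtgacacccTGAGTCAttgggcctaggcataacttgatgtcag
The window of Barhl2 lies inside the coding sequence of its terminal exon and that of Fzd7 inside the coding sequence of its single exon. The others are intronic or lie between genes or in noncoding transcripts, and Zfp141 belongs to a family of similar genes, so that the placement of its reads is uncertain.

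At 72 h, 4387 regions were higher (6.32% of those tested) and 4285 were lower (6.17%). The total of 8672 was 12.5% of the tested regions, whereas the crossed groupings separated 4037 (5.81%) and 4629 (6.66%). With a wider margin the counts fell, and their ratio to the mean of the crossed groupings rose to 2.66 at 20 points and 3.80 at 40. At a margin of 20 points 2898 regions separated the times and 984 and 1198 separated the crossed groupings. At 40 points there were 390 regions (259 higher, 131 lower) against 90 and 115. With 2 libraries against 2, the smallest two-sided exact permutation p is 0.333, and no p-value is given for these counts.

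**Figure D1:**
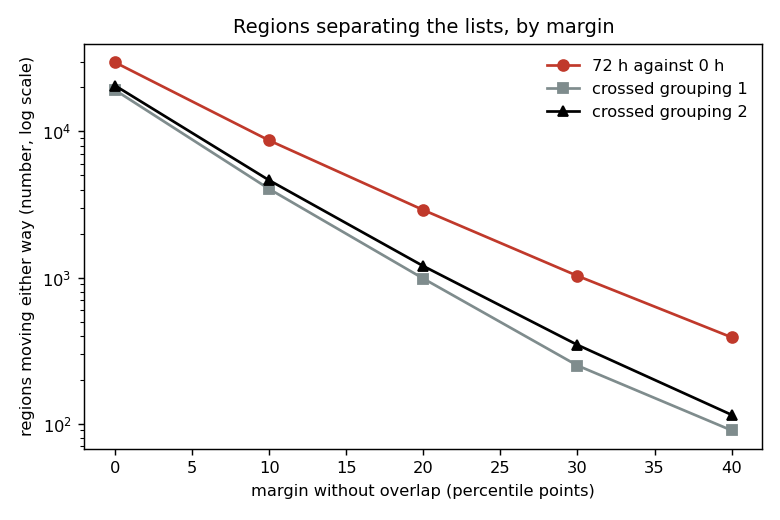
Number of regions (log scale) that separate the lists without overlap, against the margin between the nearest libraries in percentile points, for 72 h against 0 h and for the crossed groupings. At a margin of 10 the 72 h comparison has 8672 regions and the crossed groupings have 4037 and 4629.

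The lists themselves differed between the groups. The 0 h lists held 126773 and 105206 distinct intervals (replicates 1 and 2) and the 72 h lists 140311 and 154577. The weakest interval kept had a −log10 p of 4.40 and 2.54 in the 0 h lists against 4.91 and 4.50 in the 72 h lists. Both measures were thus higher in both 72 h libraries, and their part in the counts was not tested. With percentiles over full lists of unequal length, 11758 of 85795 regions were higher and 1207 lower, 90.7% of the calls instead of 50.6%, so the balance between directions depends on the lists being cut to one length. The 72 h replicate 2 list also lacks, in its name, the flow-cell code that the other 7 lists share. Spearman's correlation of percentiles across the tested regions, which are not independent, was 0.816 between the 0 h libraries, 0.804 between the 72 h libraries and 0.695 to 0.810 between times, so 0 h replicate 1 was as close to 72 h replicate 1 as the 72 h libraries were to each other. Of the tested regions 62706 (90.3%) had an interval in all 4 lists.

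Few called regions were absent at one time. Of the higher regions 98 (2.23%) were missing from both uncut 0 h lists and 3054 (69.6%) were listed among the kept intervals of all 4 libraries. Of the lower regions 21 (0.490%) were missing from both uncut 72 h lists and 3493 (81.5%) were listed in all 4. The median margin was 16.8 points for higher and −15.8 points for lower regions. Most called regions thus had an interval at both times, but the filter on the mean percentile favours such regions. Of all tested regions 90.3% were listed in all 4 libraries, more than in either called set.

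Near the genes of adult hepatocyte metabolism, lower regions outnumbered higher ones. Regions within 100 kb of the nearest protein-coding transcription start were assigned to that gene, which gave 202 regions for the 32 genes of the list. Of these, 38 (18.8%) were lower at 72 h and 5 (2.48%) were higher, beside 6.17% and 6.32% of all regions. In the crossed groupings at most 11 of the same regions were called in a direction. The median difference of the group means was −8.87 points over the list and −0.290 over all tested regions. With a library left out a margin is easier to reach, for the list and for all regions. Leaving out 0 h replicate 1 gave 74 lower (36.3%, beside 14.5% of all regions) and 15 higher (7.35%, beside 18.7%). Leaving out 0 h replicate 2 gave 41 lower (21.4%, beside 10.3%) and 17 higher (8.85%, beside 13.4%). There were 74 lower (34.4%, beside 17.8%) and 9 higher (4.19%, beside 13.3%) without 72 h replicate 1. The counts were 69 lower (31.7%, beside 15.7%) and 9 higher (4.13%, beside 11.3%) when 72 h replicate 2 was dropped. With full lists the counts were 13 lower and 22 higher of 259, which turns their order. There, lower regions made up 5.02% of the list and 1.41% of all regions, and higher regions 8.49% and 13.7%.

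**Figure D2:**
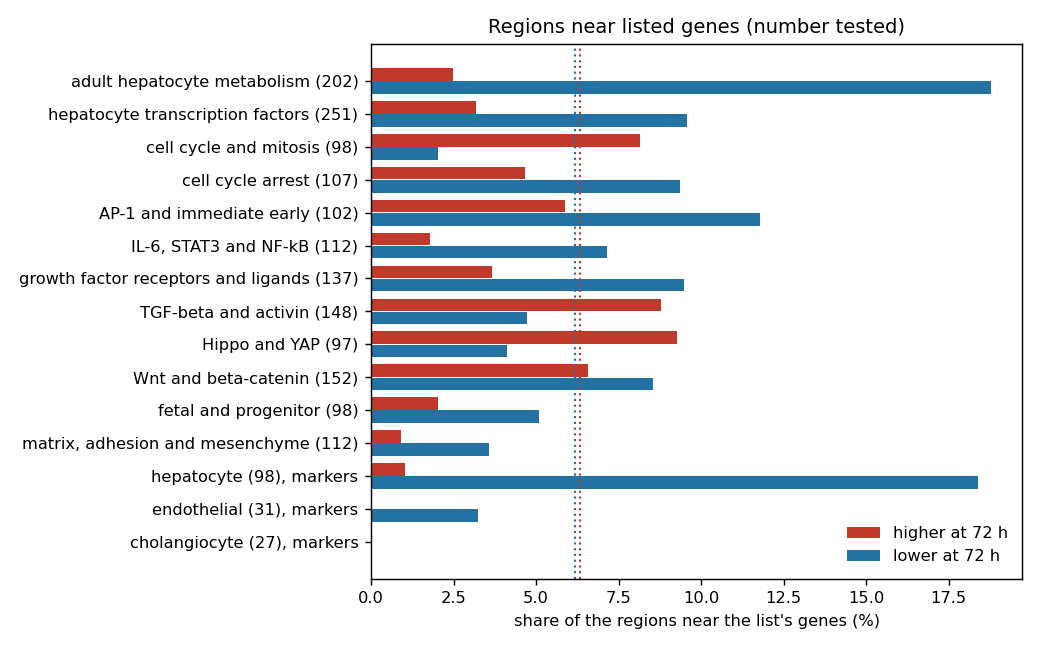
Share of the tested regions near the genes of each list (number of regions in brackets) that were higher or lower at 72 h by at least 10 percentile points without overlap, for lists with at least 25 regions. Dotted lines are the shares over all tested regions (6.32% higher, 6.17% lower). The adult hepatocyte metabolism list (18.8% lower) and the hepatocyte markers (18.4% lower) extend farthest past the lines.

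Promoters were taken as the strongest interval within 1 kb of an annotated start of a gene. Over 13524 coding genes tested, 367 promoters (2.71%) were higher at 72 h and 554 (4.10%) were lower. In the metabolism list 0 of 30 promoters were higher and 9 were lower. The Alb promoter, which drives serum albumin, had percentiles of 64.8 and 47.4 at 0 h and was in neither 72 h list, also in full length. It was at 0 in both 48 h libraries too, and at 40.2 and 0 at 96 h. Fold enrichment over local background, the peak caller's second measure, was 3.97 and 2.82 at that interval at 0 h, and 12.4 and 12.4 at a distal Alb region 13108 bp from the start. Cyp2e1, a xenobiotic-oxidising cytochrome of pericentral hepatocytes, had promoter percentiles of 48.5 and 61.2 at 0 h against 18.7 and 12.2 at 72 h. The groups did not overlap, with a margin of −29.8 points. Sds, which deaminates serine for gluconeogenesis, went from 42.0 and 61.5 to 10.9 and 12.4.

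Promoters of urea cycle enzymes were among these. Otc, encoding ornithine transcarbamylase, had percentiles of 64.8 and 76.8 at 0 h and 25.6 and 38.3 at 72 h. Ass1, encoding argininosuccinate synthase, stood at 73.9 and 78.9 at 0 h and at 62.4 and 62.0 at 72 h. Both promoters were lower in each 72 h library than in either 0 h library. The promoter of Cps1, the entry enzyme of the cycle, missed the margin with 48.7 and 71.2 at 0 h and 32.0 and 39.7 at 72 h, and that of Asl overlapped between the times. Of the remaining promoters in the list, Apoa1, the main HDL protein, had 70.6 and 68.3 at 0 h against 52.1 and 49.1 at 72 h. Cyp7a1, the rate-limiting enzyme of bile acid synthesis, had 64.3 and 75.4 against 51.7 and 33.5. These promoters kept an interval in both 72 h lists, unlike that of Alb. Over all tested regions the median percentile was 64.8 and 64.7 at 0 h and 64.7 and 64.9 at 72 h.

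Some genes of the list also had lower distal regions, whereas the 1 called distal region of Ass1 was higher (56.3 and 40.8 against 83.5 and 75.9). A region 6224 bp from the Cps1 start had percentiles of 81.4 and 81.4 at 0 h and 42.2 and 43.3 at 72 h, and its window with the E-box match is shown above. Its fold enrichment was 8.82 and 7.84 at 0 h and 4.79 and 4.64 at 72 h. A region 12569 bp from the Otc start went from 67.8 and 70.1 to 20.5 and 30.4. Ttr, encoding the thyroid hormone carrier transthyretin, had 4 lower regions out of 8 although its promoter (79.4 and 62.0 at 0 h, 32.0 and 56.7 at 72 h) missed the margin. Not every gene of the list followed: Hal, Fbp1, Gls2 and Abcb11, among others, had promoter percentiles that overlapped between the times. Cyp3a11, a drug-metabolising cytochrome, had 2 higher and 2 lower regions, and one of the higher ones had a margin of 45.2 points. Cyp3a11 lies in a cluster of similar genes, where peaks may be shared between copies.

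**Figure D3:**
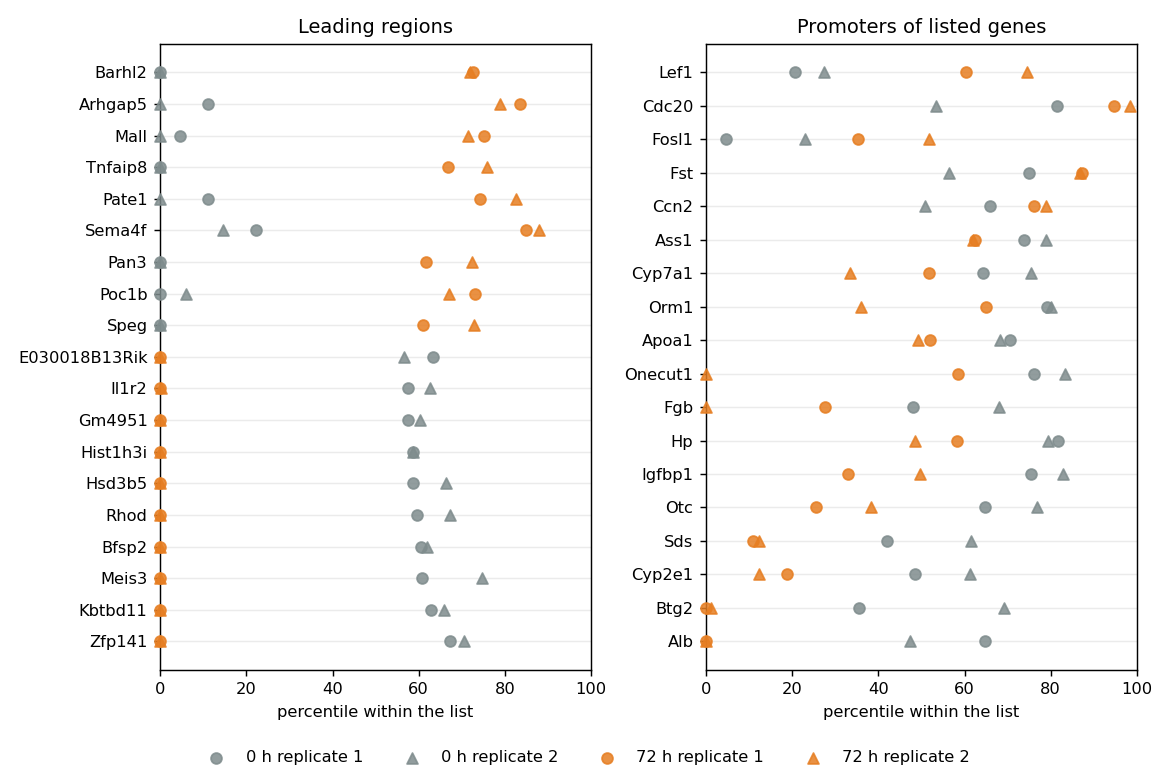
Percentile within the list of each 0 h library (grey) and each 72 h library (orange), for the leading regions named in the text (left) and for the named promoters of listed genes whose groups were at least 10 points apart (right). Circles are replicate 1 and triangles replicate 2, and 0 means no interval among the 100000 strongest. The Alb promoter lies at 0 in both 72 h libraries and the Lef1 promoter lies higher in both.

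Genes of hepatocyte transcription factors had more lower than higher regions too, 24 (9.56%) and 8 (3.19%) of 251, beside 6.17% and 6.32% of all regions. Of 20 promoters 1 was lower, beside 4.10% of all promoters, and 0 were higher, and the promoter of Hnf4a, the central regulator of adult liver genes, had 97.5 and 98.1 at 0 h against 97.7 and 94.4 at 72 h. The lower promoter was that of Onecut1, a homeodomain transcription factor of liver development, with 76.1 and 83.4 at 0 h and 58.4 and 0 at 72 h, where 72 h replicate 2 alone made the drop large. Ppara, the fatty acid sensor that switches on fasting genes, had 2 lower regions, and the one 12553 bp from its start went from 48.8 and 58.8 to 0 in both 72 h libraries. Klf15, a regulator of amino acid breakdown, had 3 lower regions out of 14. One of them, 21361 bp from its start, went from 56.4 and 61.7 to 0 and 1.80. In the crossed groupings 14 and 5, and 6 and 4, of the list's regions were called, so the lower count exceeded each crossed count.

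The cell cycle and mitosis list had 8 higher (8.16%) and 2 lower (2.04%) regions of 98. The higher share was near the 6.32% of all regions, and crossed groupings called 0 to 4 of the list's regions in a direction. The promoter of Cdc20, an activator of the anaphase-promoting complex, had 81.4 and 53.3 at 0 h and 94.8 and 98.3 at 72 h, and its fold enrichment was 10.7 and 6.10 against 15.6 and 17.6. Of the 30 promoters in the list 1 was higher and 0 were lower, beside 2.71% and 4.10% of all promoters. Most promoters of the list were already among the strongest intervals at 0 h, which leaves little room for a higher call. Their median percentile was 91.9 and 90.0 at 0 h and 89.2 and 83.7 at 72 h. Mcm6, a subunit of the replicative helicase, had 2 higher regions assigned to it, 1959 and 9189 bp from its start. The nearer one, within the gene, was at 8.89 and 0 at 0 h and at 48.3 and 46.8 at 72 h. The farther one lay outside the gene. A region 6471 bp from the start of Mybl2, a transcription factor of the S and G2 phases, went from 77.2 and 84.3 to 95.0 and 96.6.

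Genes of cell cycle arrest had 10 lower (9.35%) and 5 higher (4.67%) regions of 107, beside 6.17% and 6.32% of all regions and 2 to 5 regions in the crossed groupings. Btg2, an antiproliferative gene induced by p53, had promoter percentiles of 35.6 and 69.2 at 0 h against 0 and 1.16 at 72 h. It was the 1 lower promoter of 16, and 0 were higher, beside 4.10% and 2.71% of all promoters. Gadd45b, a stress-response gene, had 4 lower regions, the strongest at 77.3 and 76.7 against 60.0 and 36.6. The AP-1 and immediate early genes had 12 lower (11.8%) and 6 higher (5.88%) regions of 102, beside the same shares of all regions and 2 to 4 regions in the crossed groupings. Near Fos, the founding AP-1 subunit, 3 regions were lower, one of them at 90.3 and 80.6 at 0 h and 66.7 and 63.3 at 72 h. Near Atf3, a stress-induced factor, 2 regions were lower and 3 were higher, and the lower one 159 bp from its coding start had a margin of −39.4 points. The strongest interval at the Atf3 promoter overlapped between the times, with 51.3 and 82.2 at 0 h against 0 and 65.9 at 72 h. Of the 9 tested promoters of the AP-1 and immediate early list 1 was higher and 0 were lower, beside 2.71% and 4.10% of all promoters. The higher one was that of Fosl1, an AP-1 subunit of proliferating cells, with 4.53 and 23.0 at 0 h against 35.3 and 51.7 at 72 h. The promoter of Myc, a driver of growth, had 83.0 and 81.5 at 0 h and 90.4 and 86.8 at 72 h, a margin of 3.82 points that fell short of 10. Of the called Myc regions, one 1858 bp from the coding start was lower (71.5 and 69.7 against 32.3 and 22.1), and one 69110 bp away was higher (26.5 and 35.9 against 55.9 and 66.3).

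In the list of IL-6, STAT3 and NF-kB genes 8 regions (7.14%) were lower and 2 (1.79%) higher of 112. The lower share was near the 6.17% of all regions, and a crossed grouping called 7 of these regions in 1 direction. Among single genes, the promoters of Hp and Orm1, which encode the acute phase proteins haptoglobin and orosomucoid, were lower. Hp had 81.7 and 79.3 at 0 h and 58.2 and 48.5 at 72 h, and Orm1 had 79.1 and 80.0 against 64.9 and 35.9. An intronic region of Stat3 itself, the factor that carries the IL-6 signal, went from 53.5 and 65.7 to 22.7 and 3.37. The growth factor list had 13 lower (9.49%) and 5 higher (3.65%) regions of 137, beside 6.17% and 6.32% of all regions and at most 8 in the crossed groupings. All 4 called regions of Met, the receptor of hepatocyte growth factor, were lower, the one 22347 bp from the nearest start at 75.1 and 67.6 against 52.2 and 37.5. Igfbp1, a liver-secreted binding protein of insulin-like growth factors, had promoter percentiles of 75.5 and 82.8 at 0 h and 33.0 and 49.6 at 72 h. Its fold enrichment was 3.76 and 4.97 against 2.06 and 3.14.

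The TGF-beta and activin list had 13 higher (8.78%) and 7 lower (4.73%) regions of 148, not far from the 6.32% and 6.17% of all regions, with 4 to 9 in the crossed groupings. Smad3, a receptor-activated signal carrier, had 2 higher regions, one at 26.5 and 0 at 0 h and at 76.6 and 69.6 at 72 h. The promoter of Fst, an activin antagonist, was higher with 75.0 and 56.4 at 0 h against 87.3 and 86.9 at 72 h. The Hippo and YAP list had 9 higher (9.28%) and 4 lower (4.12%) regions of 97, beside the same background, with 3 or 4 in the crossed groupings. Ccn2, a matrix protein gene that YAP and TEAD switch on, had promoter percentiles of 66.0 and 50.8 at 0 h and 76.2 and 79.0 at 72 h. Tead1 had 3 higher and 1 lower region, and the region with a TEAD match 23045 bp from its nearest start went from 4.53 and 0 to 44.4 and 57.6. The values of these genes are therefore given as single regions and not as a result about either list.

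The Wnt and beta-catenin list was near the background in both directions, with 10 higher (6.58%) and 13 lower (8.55%) of 152 regions. Within it the promoter of Lef1, a nuclear partner of beta-catenin, had the widest margin of all higher listed promoters, from 20.6 and 27.4 at 0 h to 60.3 and 74.4 at 72 h, and was at 62.7 and 41.4 at 48 h. Fzd7, a Wnt receptor, had 4 lower regions of 14, and both called regions of the receptor-removing ligase Znrf3 were lower, whereas the receptor genes Fzd4 and Lrp5 each had 1 higher and 1 lower region. The fetal and progenitor list had 2 higher and 5 lower regions of 98. Of its 14 tested promoters 0 were higher and 0 lower, beside 2.71% and 4.10% of all promoters. The matrix, adhesion and mesenchyme list had 1 higher and 4 lower of 112. The shares of both lists were under the background in both directions.

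The labelled cell type was checked by markers. Of 10 hepatocyte marker genes 9 had a tested promoter, and the summed percentile of the promoters was 595 and 635 at 0 h and 422 and 427 at 72 h. Only Serpina1e, a member of a family of near-identical genes, had no promoter interval in any of the 4 lists. The hepatocyte markers overlap the metabolism list, and 18 (18.4%) of their 98 regions were lower and 1 (1.02%) higher, beside 6.17% and 6.32% of all regions, with Fgb, a fibrinogen chain, at 48.1 and 68.1 against 27.5 and 0. The markers of other cells were mixed. All 6 lymphocyte promoters were at 0 in every library. Of 8 Kupffer cell promoters 6 to 8 were at 0, with sums of 6.62 and 16.9 at 0 h and 10.8 and 0 at 72 h, and the defining genes Adgre1, Csf1r, Timd4 and Vsig4 were at 0 in all. Of 8 endothelial promoters 6 were at 0 in each library, Stab2, Lyve1, Tek and Emcn in all, with sums of 25.5 and 68.3 against 47.4 and 87.9. Stellate and fibroblast sums were 237 and 229 against 247 and 304, with Pdgfrb, Dcn and Acta2 at 0 in all, and cholangiocyte sums were 233 and 273 against 219 and 234, with Krt19 and Cftr at 0 in all. Lrat, Reln and Col1a1 of the stellate list stood between 62.4 and 94.7 in all 4 libraries. Epcam, an epithelial adhesion gene of the cholangiocyte list, was at 96.1 and 70.9 at 0 h and at 92.8 and 96.2 at 72 h. The hepatocyte sums of the 72 h libraries lay below those at 0 h, the stellate sums above, and the other sums overlapped. The stellate regions did not go with their sums, since 2 of 17 (11.8%) were lower and 0 higher. Of the 3 tested stellate promoters 0 were higher and 0 lower. The part of the sums in the results was not tested.

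Genes with several concordant regions were counted next. Of 16435 genes with a tested region, 73 had at least 3 higher and no lower regions and 88 had at least 3 lower and no higher regions. The crossed groupings gave 7 to 13 such genes in a direction. With full lists these numbers were 750 and 2, so the genes with several lower regions depend on the use of the strongest intervals. A further 599 genes had regions moving both ways. Genes with many regions have more chances to reach 3, so the counts below are given beside the number of regions tested.

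Alb and Cps1 of the metabolism list were among the genes with several lower regions. Hpgd, a prostaglandin-degrading dehydrogenase, had 5 lower regions of 12, including its promoter, which went from 88.8 and 88.7 at 0 h to 75.9 and 70.5 at 72 h. Its upstream region with the HNF4 match shown above went from 51.9 and 68.6 to 0 and 6.83. Its region 51285 bp from the start had fold enrichments of 8.54 and 12.7 at 0 h and 3.72 and 5.12 at 72 h. Alb had 4 lower of 11 and Cps1 had 4 of 16. The distal Alb region with the HNF4 match, 13108 bp from the start, kept high percentiles, at 89.0 and 90.7 against 77.1 and 76.8. The Car1 group, named for a carbonic anhydrase gene, had 4 of 11, and its region with the HNF4 match went from 62.4 and 71.2 to 7.86 and 14.2. Promoter intervals were among the lower regions at Hpgd and Alb, and the rest were distal.

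Among the other leading genes with several lower regions, Xiap, an inhibitor of caspases on the X chromosome, had the most, 6 of 11, all lower in both 72 h libraries, and its window with the FOXA match belongs to a region at 49.8 and 57.8 against 20.5 and 30.4. Col15a1, a basement membrane collagen gene, had 5 of 8, with percentiles between 53.1 and 91.2 at 0 h and between 0 and 79.9 at 72 h. Adgrv1, an adhesion G protein-coupled receptor, had 4 of 17 with the widest mean margin, −34.3 points. Rbfox2, a splicing regulator, had 4 of 22. Cd28, a T cell receptor for costimulation, had 4 of 8, the strongest at 82.3 and 86.6 against 66.8 and 57.0, while the lymphocyte promoters given above were at 0. Assignment was by the nearest start, and the Cd28 regions lay 75435 to 86551 bp from it.

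**Figure D4:**
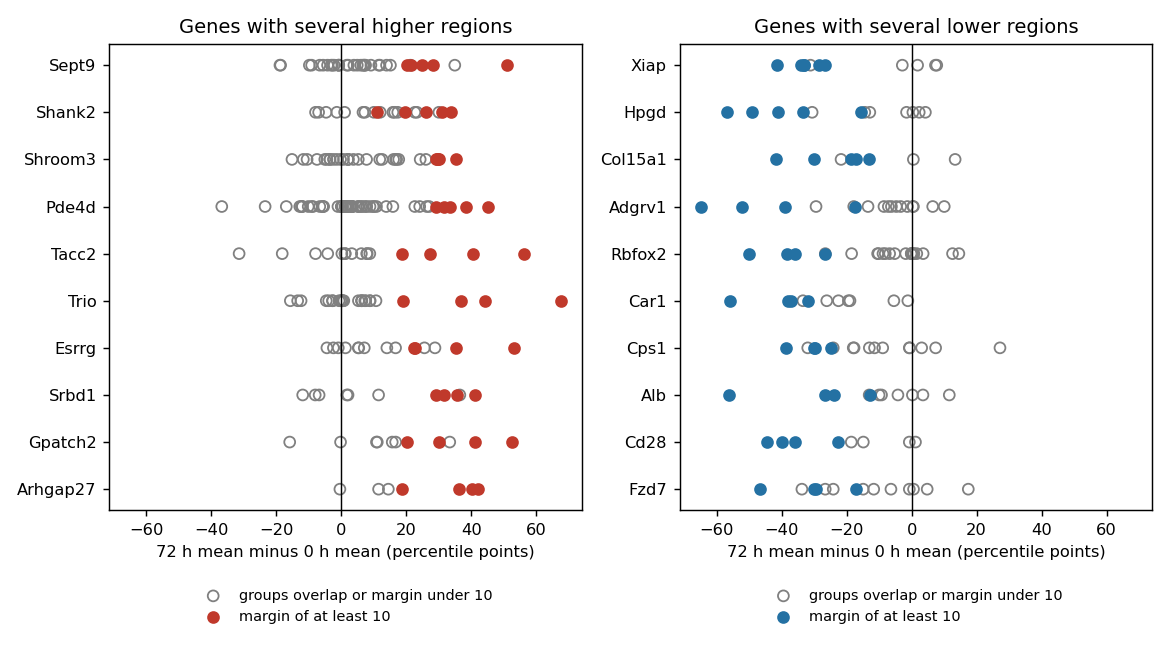
Difference of the group means (72 h minus 0 h, percentile points) of every tested region of the 10 leading genes with several higher regions (left) and several lower regions (right). Filled points are regions whose groups were at least 10 points apart without overlap, open points the others. The open points spread to both sides of 0, and the filled points lie to 1 side by the rule that chose the genes.

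The genes with several higher regions were not tested for a shared function. Sept9, a septin of the cortical cytoskeleton, had 5 higher regions of 34, among them a promoter interval that went from 61.2 and 43.4 to 81.8 and 79.0. The intronic Sept9 region with the AP-1 match went from 56.9 and 67.4 to 78.9 and 88.1. Trio, an exchange factor for small GTPases, had 4 of 26. The Trio region with the CTCF match was in neither full 0 h list and stood at 59.9 and 75.1 at 72 h. Tacc2, a centrosomal protein, had 4 of 16, one of them from 0 and 0.959 to 56.2 and 56.9. Shroom3, an actin-binding protein of apical constriction, had 5 of 31. Arhgap27, an inactivator of small GTPases, had 4 of 7, and its 2 regions with CTCF matches were at 45.3 and 0, and at 17.1 and 0, at 0 h.

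The others of the 10 leading genes with several higher regions were Shank2, a scaffold protein (5 of 20), Pde4d, a cAMP phosphodiesterase (5 of 51), Esrrg, an orphan nuclear receptor (4 of 15), Srbd1 (4 of 11) and Gpatch2 (4 of 11). An Esrrg intronic region went from 11.2 and 14.6 at 0 h to 67.2 and 64.6 at 72 h, with fold enrichments of 3.70 and 3.38 against 9.26 and 8.53. The Pde4d promoter interval went from 11.2 and 35.9 to 55.6 and 68.5. Gpatch2 and Esrrg are neighbours on chromosome 1, so their regions are not independent of each other in position. Pde4d had the most tested regions of these genes.

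The single regions with the widest margins were chosen by their values and are a description. At Barhl2, a homeobox gene of neural development, a region in the terminal exon (chr5:106453276-106453778) was at 0 in both 0 h libraries and at 72.7 and 71.8 at 72 h. At Arhgap5, which encodes a GTPase-activating protein, the region with the AP-1 match shown above went from 11.2 and 0 to 83.5 and 78.8. At Mall, a membrane raft protein gene, the values were 4.53 and 0 against 75.2 and 71.5. Others that were higher lay near Tnfaip8, Pate1, Sema4f, Pan3, Poc1b and Speg, with margins of 61.0 to 66.9 points. The region assigned to Sema4f, a semaphorin, lies 57836 bp from the nearest coding start, at the start of a noncoding transcript, and carries an AP-1 match. It was present in every library, at 22.2 and 14.6 at 0 h and at 84.8 and 88.0 at 72 h, and at 85.0, 50.9, 88.3 and 80.7 in the 48 and 96 h libraries. Its fold enrichment was 4.27 and 3.38 against 12.5 and 13.8.

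The widest lower margins were at Zfp141, Kbtbd11, Meis3, Bfsp2, Rhod, Hsd3b5, Hist1h3i, Gm4951, Il1r2 and E030018B13Rik, from −67.2 to −56.5 points. At 9 of the 10 both 72 h libraries were at 0, and at Il1r2, a decoy receptor of interleukin-1, they were at 0 and 0.135. Only the regions of Kbtbd11, Rhod and E030018B13Rik were missing from both uncut 72 h lists, and with full lists their margins widened. At the others the margin narrowed with full lists, for example from −60.8 to −35.3 points at Meis3 and from −57.4 to −30.6 at Il1r2. At Kbtbd11 the values were 62.8 and 65.9 at 0 h, at Meis3, a homeobox gene, 60.8 and 74.8, and at Rhod, an endosomal small GTPase, 59.5 and 67.2. Hsd3b5 encodes a steroid dehydrogenase that is abundant in male mouse liver, and its region, which carries an HNF4 match, was at 58.7 and 66.3 at 0 h. The 48 h libraries were at 44.6 and 48.8 there and the 96 h libraries at 0 and 5.65. Zfp141 and the histone gene Hist1h3i (58.7 and 58.6 at 0 h) belong to multigene families. The Kbtbd11 region was at 0 and 97.3 in the 48 h libraries, which shows how far 2 libraries of 1 time can lie apart at a single region.

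Motif shares differed between higher and lower regions. CTCF matches were in 9.21% of windows of higher regions, in 3.87% of lower ones and in 6.89% of all, a difference of 5.34 percentage points that was 0.705 and −3.24 in the crossed groupings and became 8.88 when the 50000 strongest intervals were used. HNF4 matches were in 1.98% of higher, 6.49% of lower and 3.50% of all windows (a difference of −4.50 points, crossed 0.649 and 1.11). E-box matches were in 2.10%, 5.65% and 3.38% (−3.55, crossed 1.54 and 0.661), and FOXA matches in 3.62%, 7.07% and 4.98% (−3.45, crossed −2.72 and −2.14). HNF4 and FOXA motifs are typical of hepatocyte enhancers and the E-box is bound by MYC, USF and the clock proteins, and all of these were more frequent in regions lower at 72 h. The FOXA difference was only slightly larger than in the crossed groupings. With each library left out in turn, the difference ranged from 4.01 to 5.54 for CTCF, from −3.40 to −2.67 for HNF4, from −3.45 to −2.02 for E-box and from −2.91 to −1.50 for FOXA. HNF4 and E-box were closest to 0 without 0 h replicate 2. FOXA was at −1.50 without 0 h replicate 1 and at −1.84 without 72 h replicate 2, both smaller than in the crossed groupings. Of 20 motifs, 13 differed by more than in both crossed groupings, and 3 of these were more frequent in higher regions.

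AP-1 matches were in 8.98% of higher and 7.44% of lower windows and in 7.56% of all. This difference of 1.54 points was smaller than one of the crossed values (−0.682 and −5.08), and it became −0.207 without 0 h replicate 2. C/EBP matches were in 12.6% of higher, 15.3% of lower and 13.3% of all windows, and the difference of −2.73 points was smaller than both crossed values (3.49 and 6.79) and became 0.544 without 0 h replicate 2. These motifs therefore did not separate 72 h from 0 h beyond the libraries. STAT matches (4.60% and 6.02%) also lay within the crossed values. Matches to TEAD (CATTCCA) were in 3.81% and 3.13%, a difference of 0.680 points against 0.204 and 0.519. NRF1 and ETS (CCGGAAGT), which mark promoters of housekeeping genes, were in 0.160% and 0.251% of higher windows, in 1.24% and 1.28% of lower ones and in 1.33% and 1.35% of all. The lower windows were thus near the share of all, and the higher windows held fewer. The crossed calls held fewer too, from 0.198% to 0.634% for NRF1 and from 0.198% to 0.942% for ETS. For NRF1 the difference of −1.08 points became −3.20 with 50000 intervals and −0.625 with no filter on the mean percentile. A match is a string of letters and does not show that a factor was bound.

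**Figure D5:**
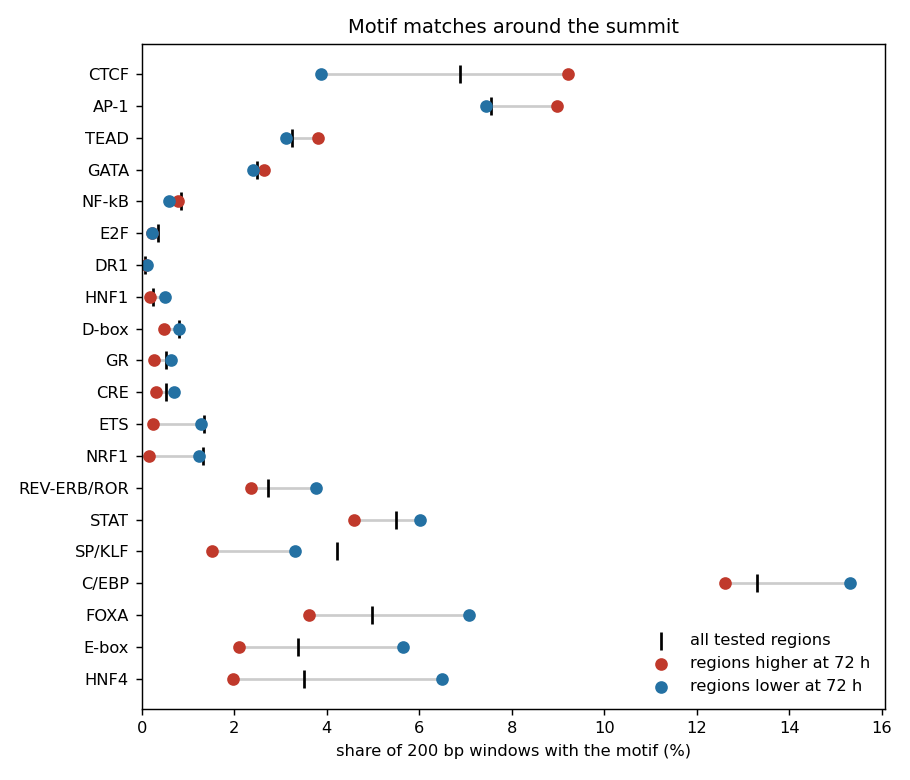
Share of 200 bp windows around the summit that hold a match to each of 20 motifs, for regions higher at 72 h (red), lower at 72 h (blue) and all tested regions (black tick). The widest separations are at CTCF (9.21% and 3.87%) and HNF4 (1.98% and 6.49%).

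Higher and lower regions differed in position. Promoters, the regions within 1 kb of any of 77161 annotated transcription starts, made up 24.8% of tested, 14.5% of higher and 21.7% of lower regions. The difference of −7.16 percentage points compares with promoter shares of 13.6% and 10.0%, and of 11.5% and 14.3%, on the sides of the crossed groupings, and it became −20.3 with the 50000 strongest intervals. Both directions thus held fewer promoters than the tested set did, as did the crossed calls. Introns made up 47.8% of higher and 42.8% of lower regions and intergenic sequence 32.6% and 32.1%. Among the 1153 regions in coding exons, 9.02% were higher and 4.34% lower, beside 6.32% and 6.17% of all regions. The crossed groupings called 2.95% to 4.86% of the coding exon regions in a direction. The mean GC content of the windows was 52.3% in higher and 48.9% in lower regions and 52.8% in all, and the crossed groupings spanned 48.1% to 51.1%.

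The X chromosome stood out among chromosomes. Of its 1263 tested regions 10.1% were lower and 4.20% higher, beside 6.17% and 6.32% of all regions. The crossed groupings called 2.77% to 4.75% of the X regions in a direction. Chromosome 19 was the reverse, with 8.70% of 1989 regions higher and 4.73% lower, but there the crossed groupings reached from 1.76% to 5.43%. The lower X regions included those of Xiap and the promoter and distal region of Otc. Without the sex chromosomes the metabolism list had 34 lower (17.3%) and 5 higher of 197 regions, so the X chromosome carried only 4 of its lower regions.

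A test on the authors' second measure made no calls. Fold enrichment over local background was compared on the log2(value + 1) scale after quantile normalization with limma, at the 64919 regions listed in all 4 libraries. At a Benjamini-Hochberg adjusted p under 0.05, limma called 0 regions, and the smallest adjusted p was 0.352. At an unadjusted p under 0.05, 2962 regions were higher and 2323 lower, 8.14% of the regions, whereas the crossed groupings gave 2.87% and 4.07%. The Sema4f region had a log2 change of 1.60 ± 0.25 (SE, n = 2 against 2, limma adjusted p = 0.352), and the Cdc20 promoter had 1.01 ± 0.22 (limma adjusted p = 0.386). At the Hpgd region 51285 bp from the start the change was −1.05 ± 0.28 (limma adjusted p = 0.409), and at the Cps1 region 6224 bp from the start −0.69 ± 0.26 (limma adjusted p = 0.520). No single region can therefore be called by this test, and the results above rest on counts over many regions and on the libraries' values.

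Of the higher regions 3054 were in this fit, with a median log2 change of 0.57, and of the lower ones 3493, with a median of −0.47. Fold enrichment and −log10 p come from the same reads, so this is a description of size and not a second line of evidence. In limma fits that left out a library, so that the lone sample of a group is assumed to vary like the others, 0 regions were called in 3 cases and 23 (8 higher, 15 lower) without 72 h replicate 1. Replicate 2 is the list with the differing name, and the 23 calls rest on it.

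The regions were also followed at the other times, without a test, since the 0 h libraries define them. Regions higher at 72 h had median percentiles of 35.6 and 30.2 in the 0 h libraries, 52.1 and 51.7 in the 48 h libraries, 62.7 and 65.3 in the 72 h libraries and 54.7 and 51.1 in the 96 h libraries. Regions lower at 72 h had medians of 60.0 and 64.1 before PHx, then 44.6 and 48.1 (48 h), 34.6 and 33.1 (72 h), and 46.7 and 49.1 (96 h). In both sets the 48 and 96 h medians lay between those of the 0 h and the 72 h libraries. Regions chosen for extreme values in 4 libraries tend to the middle in others, so this order is not read further. The medians over all tested regions were 64.0 to 64.9 in all 8 libraries.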

How the data were processed

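Chromatin accessibility was measured by ATAC-Seq in hepatocytes of undamaged liver (0 h) and at 72 h after PHx, with 2 libraries each, and groups were taken from the sample labels. Per the study's methods, the authors ran the ENCODE pipeline, which trimmed reads, aligned them to mm10 with Bowtie2, removed duplicates and called peaks per library with MACS2. The deposited lists give for each peak a fold enrichment over local background and a −log10 p, both as written by the authors' peak caller. They hold no read counts, so the depth behind a peak is unknown, no interval for counting error was computed, and the count-based test described in the methods was not run. Where several lines shared an interval only the line of largest −log10 p was kept, on the 19 autosomes, X and Y.

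The 100000 strongest intervals per library were ranked, merged (1 bp) and compared by percentile, with a mean percentile of at least 25 and a margin of at least 10 points. Promoters were within 1 kb of a start annotated in GENCODE M21. Regions were assigned to the nearest protein-coding start of 41408 within 100 kb, and motif matches on either strand were counted in 200 bp around the summit. Named were, for each direction, the 10 regions with the widest margin (1 per gene), the 10 genes with the most concordant regions (at least 3, none opposite), listed promoters differing by at least 10 points, and sequences of the leading regions. Some genes that these rules name are not reported here. Genes named as examples within a list were chosen after their values were seen. The members, gene lists (290 entries, all matched) and motifs were chosen with earlier results of these data known. limma 3.58.1 (R 4.3.3) with an intensity trend and robust variances tested log2(fold enrichment + 1) after quantile normalization, with Benjamini-Hochberg adjustment. Percentiles were computed with Python 3.11.15 and pandas 2.3.3. Both procedures were tested on simulated data.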

Additional observations from a re-analysis of the deposited data

How the results depend on the processing

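The 4387 higher and 4285 lower regions were 11758 and 1207 with all intervals, 2912 higher with 50000 intervals, 7764 and 7177 with no filter on the mean percentile, 14230 and 15445 at any margin above 0, and 1593 and 1305 at a margin of 20. Leaving out 1 library, which eases the criterion, gave 7847 to 13038 higher and 7277 to 12398 lower. The −7.16 points between the promoter shares became −20.3 with 50000 intervals. Genes with several higher regions (73) became 750 with all intervals, 38 with 50000, 5 at a margin of 20 and 17 within 20 kb, and those with several lower regions (88) became 2, 27, 7 and 37. The metabolism list (38 lower, 5 higher, alternatives chosen after seeing the data) had 13 and 22 with all intervals, 14 and 2 of 78 with 50000 (17.9% lower, 8.18% of all regions), 18 and 3 of 128 when ranked by fold enrichment (14.1%, 5.77%), 14 and 3 of 202 at a margin of 20 (6.93%, 1.88%), 8 higher with no filter, and 41 to 74 lower and 9 to 17 higher without 1 library. limma called 23 regions without 72 h replicate 1 and 0 without any other library. Called promoters of listed genes went from 5 to 3 higher within 250 bp and from 14 to 9 lower with all intervals.

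With a replicate block, in which same-numbered lists were compared, 6389 regions were higher and 6463 lower and limma called 0. The replicate numbers do not pair the libraries by any label, and the correlation of same-numbered deviations over regions was −0.0539. The difference in motif share reversed in 2 of 70 recomputed values, both without 0 h replicate 2. Without 1 library in turn, it ranged from −0.207 to 3.45 for AP-1 and from −4.76 to 0.544 for C/EBP. The unknown read depth limits every value.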
